A study of Mus musculus with 9 samples.

Results

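Ferroptosis control and lipid peroxidation were followed through 9 genes, Slc7a11, Slc3a2, Gpx4, Aifm2, Acsl4, Lpcat3, Alox5, Alox12 and Alox15, among the 17963 genes of a kidney RNA-seq table. The 9 were taken by name as the genes that import cystine, repair lipid peroxides, build oxidisable phospholipids and oxygenate them, and each was found by its Entrez gene number, with its transcripts added up. The study asked how YSJZD, a decoction given orally, alters the kidney injury that cisplatin, a platinum chemotherapy drug, causes in mice. All mice were wild type, and cortical tissue was labelled as taken on day 4. The first group received cisplatin into the peritoneum and YSJZD by gavage. The second received cisplatin and water, and the control group received saline and water by the same routes. Each group had 3 libraries. The sources used here do not give the dose, strain, age or sex. The 3 samples of a group were randomly chosen cortical pieces, and no label says that each came from its own mouse, so a p-value here reflects sample-to-sample spread, which may be technical.

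Ferroptosis is a form of cell death in which iron-dependent peroxidation of polyunsaturated phospholipids breaks down cell membranes. Cells hold it off by importing cystine, making glutathione from it and using glutathione in the enzyme GPX4 to reduce lipid peroxides. ACSL4 and LPCAT3 load membranes with the fatty acids that are peroxidised, and lipoxygenases are enzymes that oxygenate such fatty acids directly. The proximal tubule of the kidney is rich in mitochondria and iron-handling proteins and is a well studied site of this kind of death.

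Library totals lay between 15029286 and 16690482 expected counts. Markers of the labelled tissue were present. Summed levels of 10 proximal tubule markers were 16370 to 32680 CPM in YSJZD, 3835 to 6274 CPM in cisplatin and 62280 to 79850 CPM in control libraries. Kap alone makes up most of the mean sum, with 14000 CPM in YSJZD, 3913 CPM in cisplatin and 53190 CPM in control libraries. In the test described below, 10 of the 10 were higher in YSJZD over cisplatin, against 17.4% of all genes. In cisplatin over control 9 were lower and none higher, against 26.0% and 28.6%. CPM is the count relative to library size, here scaled by the trimmed mean of M-values (TMM) with factors of 0.855 to 1.105. Summed levels of 8 tubular injury markers were 12520 to 17530 CPM in YSJZD, 15400 to 36770 CPM in cisplatin and 461 to 503 CPM in control libraries. One gene, Spp1, makes up most of the mean sum, with 12270 CPM in YSJZD, 18300 CPM in cisplatin and 288 CPM in control libraries. In the test described below, 5 of the 8 were lower and none higher in YSJZD over cisplatin, against 18.0% and 17.4% of all genes. On the third principal component of log2 CPM cisplatin replicate 3 stood apart at -48.7, with the other 8 libraries between -5.5 and 22.7, and values without it are given below for the members that passed a test. In bulk tissue, fewer cells of a type and less RNA per cell cannot be told apart.

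Cisplatin libraries were higher than control libraries in 4 of the 8 members that passed the low-count filter and lower in none. Acsl4, Alox5, Slc7a11 and Aifm2 were the 4. Over all 13954 genes tested in edgeR's quasi-likelihood fit, 54.6% passed a Benjamini-Hochberg adjusted p of 0.05, with 28.6% higher and 26.0% lower. The members' count lies near that background. With a change of at least 2-fold as well, 3 members passed, against 33.0% of all genes. Library values of cisplatin and control did not overlap for 7 of the 8 members, against 63.4% of all genes.

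Under YSJZD the same 4 genes were lower than under cisplatin alone and Gpx4 was higher, which makes 5 of 8 members called, against 35.4% of all genes. Of all genes 17.4% were higher and 18.0% lower in that comparison. The count of 5 fell to 3 without cisplatin replicate 1, without cisplatin replicate 2 or without YSJZD replicate 2. At least 2-fold changes were seen in 3 members, against 19.1% of all genes, and 5 members did not overlap between the groups, against 47.3%.

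YSJZD libraries were higher than control libraries in Acsl4 and Alox5 and lower in no member, which is 2 of 8, against 19.3% of all genes (9.93% higher, 9.37% lower). That background of 2694 genes fell to 1607 without control replicate 1 and to 1692 without control replicate 2. Both genes differed by at least 2-fold, against 10.0% of all genes, and 3 members did not overlap between the groups, against 40.4%. The 3 comparisons share libraries in pairs. The median log2 fold change of the 8 tested members was 0.38 in cisplatin over control, against 0.04 over all tested genes. It was -0.28 in YSJZD over cisplatin, against -0.01, and 0.20 in YSJZD over control, against 0.01. Alox15 did not pass that filter, whose limit was 0.625 CPM. Slc7a11 and Alox5 passed with 2 and 0 of their 3 control libraries over that limit, so the group in which they are high helped to admit them.

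**Figure D1:**
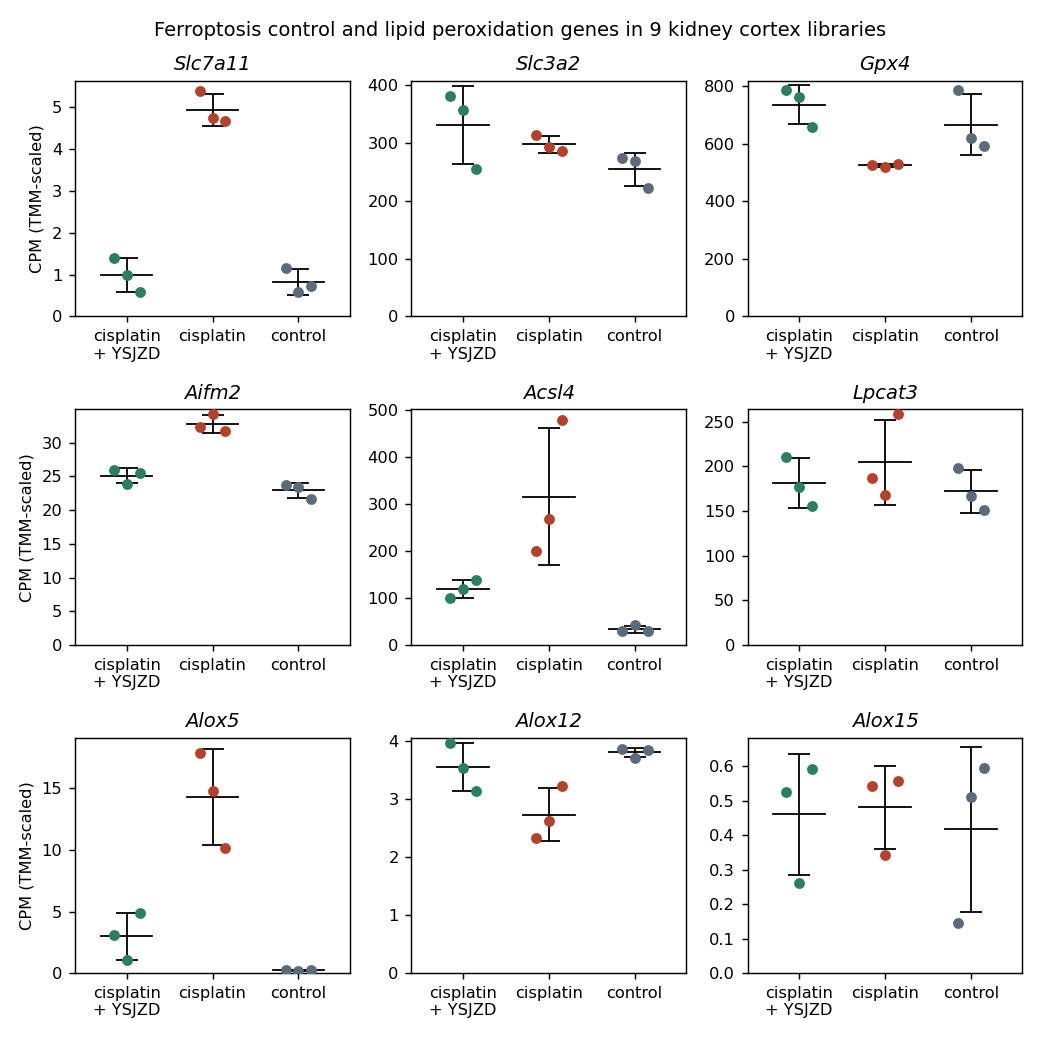
TMM-scaled CPM of the 9 members in each library. Points are libraries in the order of their replicate number, horizontal lines are group means and bars are SDs (n = 3), and each panel has its own scale from 0. Acsl4, Alox5, Slc7a11 and Aifm2 stand highest in the cisplatin libraries, where Gpx4 stands lowest.

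**Figure D2:**
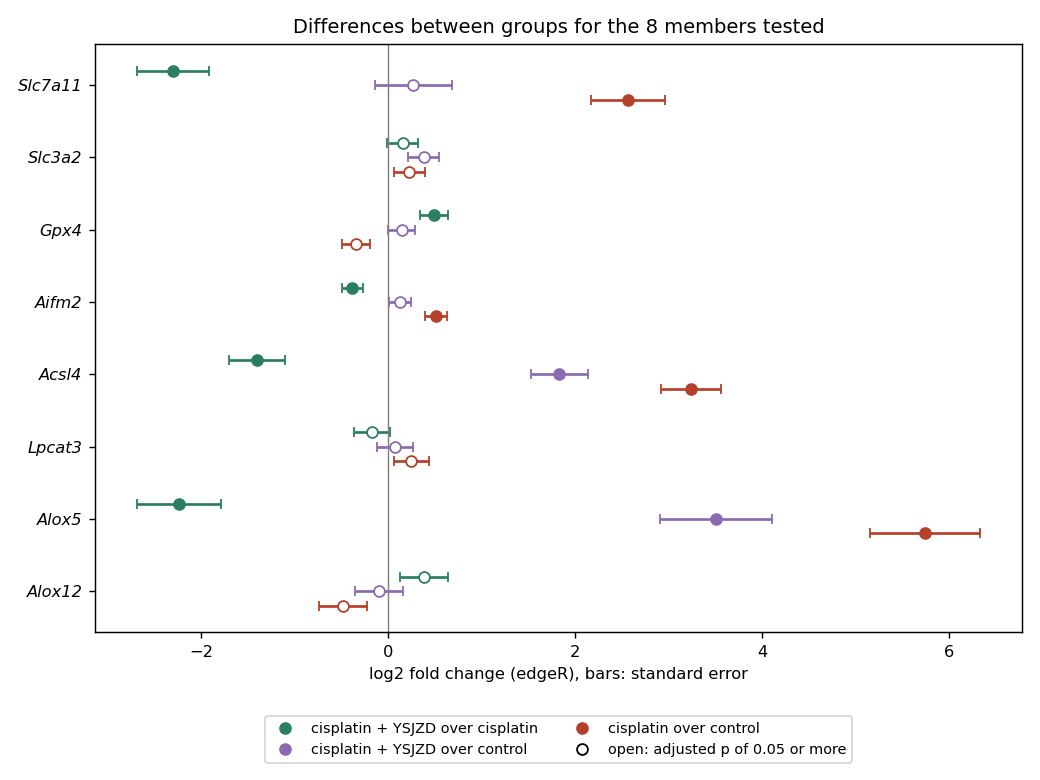
Log2 fold changes of the 8 tested members with the standard error of the edgeR fit, for 3 comparisons. Filled points have an adjusted p under 0.05. Alox5 (5.74) and Acsl4 (3.24) lie farthest to the right in cisplatin over control.

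Per length, Gpx4 was the most abundant member in every group and the lipoxygenases and Slc7a11 the scarcest. In FPKM, which is not scaled for composition and is used here only to set genes side by side, Gpx4 averaged 944 in YSJZD, 692 in cisplatin and 750 in control libraries. Slc3a2 followed with 167, 163 and 115 FPKM, and Lpcat3 with 87.9, 102 and 72.2 FPKM, in the YSJZD, cisplatin and control groups. Acsl4 changed place in that order. It stood below Aifm2 in control libraries, at 6.26 against 8.98 FPKM, and above it in cisplatin libraries, at 67.9 against 15.3 FPKM, where its range of 45.2 to 98.0 FPKM reached into that of Lpcat3 (85.9 to 123 FPKM). In YSJZD libraries Acsl4 averaged 25.4 and Aifm2 10.9 FPKM. Among the scarce members, Alox5 averaged 5.73 and Alox12 1.42 FPKM in cisplatin libraries, while Alox15, Slc7a11 and Alox5 overlapped in control libraries between 0.03 and 0.15 FPKM. In YSJZD libraries the ranges of Alox12 and Alox5 overlapped (1.62 to 1.94 and 0.40 to 1.93 FPKM), as did those of Slc7a11 and Alox15.

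Promoter sequences are shown for Slc7a11, Acsl4 and Alox5, the members whose change was at least 2-fold in both cisplatin over control and YSJZD over cisplatin. They run from 250 bases before to 50 bases after a start site that RefSeq's promoter table gives for the gene in GRCm38.p6, all on the minus strand, at chr3:50443564-50443863 for Slc7a11, chrX:142390486-142390785 for Acsl4 and chr6:116461129-116461428 for Alox5. Capitals mark matches to an amino acid response element (TGATGNAA) in Slc7a11, and to a GC box (GGGCGG) in the other sequences, on either strand. For Slc7a11 and Acsl4 the start site lies inside the annotated gene span, so these windows stand for that start and not for every transcript of the gene.
Slc7a11: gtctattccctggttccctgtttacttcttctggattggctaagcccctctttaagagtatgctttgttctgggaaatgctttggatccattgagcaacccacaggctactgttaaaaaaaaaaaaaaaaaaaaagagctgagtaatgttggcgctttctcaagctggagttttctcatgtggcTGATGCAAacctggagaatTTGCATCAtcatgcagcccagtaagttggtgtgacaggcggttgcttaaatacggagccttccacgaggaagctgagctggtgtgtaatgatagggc
Acsl4: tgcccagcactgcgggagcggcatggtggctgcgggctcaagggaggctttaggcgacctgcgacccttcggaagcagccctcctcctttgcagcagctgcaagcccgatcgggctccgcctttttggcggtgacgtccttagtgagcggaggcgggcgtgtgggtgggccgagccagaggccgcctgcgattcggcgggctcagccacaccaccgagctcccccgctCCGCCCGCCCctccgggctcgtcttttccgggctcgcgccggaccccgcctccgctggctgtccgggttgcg
Alox5: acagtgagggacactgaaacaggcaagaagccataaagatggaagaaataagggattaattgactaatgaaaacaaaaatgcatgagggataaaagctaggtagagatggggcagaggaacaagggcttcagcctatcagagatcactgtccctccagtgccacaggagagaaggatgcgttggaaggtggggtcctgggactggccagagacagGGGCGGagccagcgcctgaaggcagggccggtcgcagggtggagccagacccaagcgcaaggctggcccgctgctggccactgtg
The Slc7a11 window holds 2 matches to the amino acid response element in opposite orientation, at -66 to -59 and -47 to -40 from that start site, and no other member's promoter holds one. Of 32851 RefSeq promoters of this length, 3.97% hold at least 1 such match. The 2 GC box matches of Acsl4 overlap each other, Alox5 has 1, and 35.7% of all promoters hold at least 1. The antioxidant response element core TGACNNNGC, found in 12.4% of promoters, is in none of the members' windows. Alox15 had no promoter in the table. These matches are letters in a window, and binding was not measured.

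The cystine importer called system xc- is made of SLC7A11, which carries cystine in against glutamate, and SLC3A2, the chaperone subunit that it shares with other amino acid carriers. Slc7a11 (Entrez gene 26570, chr3:50364936-50499087 in GRCm38.p6) rose about as far in each cisplatin library and stood near the control level under YSJZD. It had 24, 15 and 10 counts in YSJZD libraries, 99, 83 and 75 in cisplatin libraries and 16, 8 and 11 in control libraries. Those counts correspond to 1.4, 0.984 and 0.593 CPM in YSJZD libraries, 5.37, 4.74 and 4.66 CPM in cisplatin libraries and 1.16, 0.583 and 0.729 CPM in control libraries. All 3 cisplatin libraries lie above the other 6, and YSJZD and control libraries overlap. The log2 fold change was -2.30 ± 0.38 in YSJZD over cisplatin (edgeR, Benjamini-Hochberg adjusted p = 0.00166), and -2.34 (adjusted p = 0.00276) without cisplatin replicate 3. It was 2.57 ± 0.40 in cisplatin over control (adjusted p = 0.00037), or 2.60 (adjusted p = 0.000786) without that library. The difference between YSJZD and control, 0.27 ± 0.41, missed the threshold (adjusted p = 0.699). Of its 3 transcripts in the table, the one annotated with 502 residues had 0 counts in every YSJZD library, 46.9, 15.7 and 75 expected counts in cisplatin libraries and 0 in every control library. The counting program gave the remaining reads to the other 2 transcripts, and at so few reads this split is uncertain. Which start site the reads came from was not tested.

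Slc3a2 (Entrez gene 17254, chr19:8706882-8723369), the partner subunit, did not pass in any comparison. It had 381, 356 and 254 CPM in YSJZD libraries, 313, 293 and 286 CPM in cisplatin libraries and 273, 269 and 221 CPM in control libraries. The cisplatin libraries lie above the controls without overlap, and the YSJZD libraries span both groups. Its log2 fold change was 0.15 ± 0.17 in YSJZD over cisplatin (edgeR adjusted p = 0.505), 0.38 ± 0.17 in YSJZD over control (adjusted p = 0.147) and 0.23 ± 0.17 in cisplatin over control (adjusted p = 0.281). Scaled by library totals alone, the last 2 differences passed, at 0.57 (adjusted p = 0.0286) and 0.46 (adjusted p = 0.0297).

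Slc7a11 made up a small part of the light chains that pair with SLC3A2. Summed FPKM of 6 such carriers was 198 ± 30.0 in YSJZD, 95.9 ± 12.9 in cisplatin and 173 ± 17.5 in control libraries (SD, n = 3 each). Slc7a11 took 0.0579% ± 0.0258, 0.635% ± 0.167 and 0.0518% ± 0.0234 of these sums in YSJZD, cisplatin and control libraries. Its share in each cisplatin library, 0.522% to 0.827%, lay above every other library, the highest of which was 0.0873%. Slc7a7, which exports cationic amino acids from tubule cells with SLC3A2, took 74.3% ± 4.87 in YSJZD, 46.0% ± 8.73 in cisplatin and 64.5% ± 1.78 in control libraries.

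Other genes of transporters built from a heavy and a light chain moved in both directions. This list holds Slc3a1, itself a heavy chain, and light chains that do not all pair with SLC3A2. Of 7 tested, 4 were higher and 1 lower in YSJZD over cisplatin, against 17.4% and 18.0% of all genes. In YSJZD over control 1 was higher and 1 lower, against 9.93% and 9.37%. In cisplatin over control 2 were higher and 5 lower, against 28.6% and 26.0%, and the medians in this order were 1.50, 0.13 and -1.46. Slc7a13, a cystine and aspartate carrier of the late proximal tubule, averaged 180 CPM in YSJZD, 3.61 CPM in cisplatin and 1194 CPM in control libraries. Its log2 fold change was 5.63 ± 0.37 in YSJZD over cisplatin (edgeR adjusted p = 4.17e-05) and fell by 8.37 ± 0.41 in cisplatin over control (adjusted p = 1.31e-06). Slc3a1, the heavy chain of the cystine carrier at the tubule brush border, was 1.50 ± 0.12 higher in YSJZD over cisplatin and fell by 1.74 ± 0.12 in cisplatin against control. Slc7a7 was 1.83 ± 0.18 higher in YSJZD over cisplatin and fell by 1.60 ± 0.18 in cisplatin against control. Slc7a5, the large neutral amino acid carrier, rose by 1.78 ± 0.29 in cisplatin over control (adjusted p = 0.000492), and its -0.72 ± 0.27 in YSJZD over cisplatin missed the threshold (adjusted p = 0.0629). Proximal tubule marker levels moved in the same direction as Slc7a13, Slc3a1 and Slc7a7, and their part in these differences was not tested.

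GPX4 is the selenoprotein that reduces phospholipid hydroperoxides inside membranes. Gpx4 (Entrez gene 625249, chr10:80047166-80056439) was a little lower in cisplatin libraries than in both other groups, and only its difference from YSJZD passed. It had 785, 764 and 658 CPM in YSJZD libraries, 525, 519 and 529 CPM in cisplatin libraries and 788, 621 and 591 CPM in control libraries. The 3 cisplatin libraries lie close together below the other 6, while YSJZD and control libraries overlap. In FPKM, without the composition factor, cisplatin (652 to 725) and control (705 to 839) overlap. The log2 fold change was 0.49 ± 0.15 in YSJZD over cisplatin (edgeR adjusted p = 0.0278). That call was lost without cisplatin replicate 1 (adjusted p = 0.0671), cisplatin replicate 2 (0.0747), YSJZD replicate 1 (0.06) or YSJZD replicate 2 (0.0774), and without cisplatin replicate 3 the adjusted p was 0.0478. In cisplatin over control the value was -0.35 ± 0.15 (adjusted p = 0.0717), which passed in DESeq2 at -0.36 (adjusted p = 0.0295). YSJZD over control was 0.14 ± 0.15 (adjusted p = 0.552). Proximal tubule markers were also lowest in the cisplatin libraries, and their part in the Gpx4 values was not tested.

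The deposited table has 2 Gpx4 transcripts, which start in different exons. One encodes 197 residues, the mitochondrial precursor, whose first exon also holds a downstream start for the cytosolic form. The other encodes 253 residues, with an arginine-rich first exon known to target the protein to nuclei, mostly in sperm cells. The coding parts of the first exons are at chr10:80053632-80053715 and chr10:80054049-80054300 on the plus strand of GRCm38 (GENCODE M21), the second lying within the first intron of the first transcript. Shown are these coding stretches, with the start codon in capitals, and the shared codons around the selenocysteine, which is written by a TGA (capitals) at codon 73 of the shorter and codon 129 of the longer form.
Gpx4 197 residues: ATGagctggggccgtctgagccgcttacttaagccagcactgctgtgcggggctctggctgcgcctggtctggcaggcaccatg
Gpx4 253 residues: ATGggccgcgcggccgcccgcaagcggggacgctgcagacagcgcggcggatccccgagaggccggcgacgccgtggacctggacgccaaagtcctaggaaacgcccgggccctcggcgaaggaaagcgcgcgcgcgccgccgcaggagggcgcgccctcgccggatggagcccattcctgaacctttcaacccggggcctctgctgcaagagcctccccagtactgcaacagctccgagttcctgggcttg
Gpx4 selenocysteine codon: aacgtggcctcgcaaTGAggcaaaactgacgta
The shorter form held 98.5% to 99.8% of the gene's counts in every library. The longer form had 113, 116 and 93.8 expected counts in YSJZD libraries, 132, 135 and 117 in cisplatin libraries and 17.01, 32.9 and 34.2 in control libraries. Cisplatin and YSJZD libraries lie far above the controls and close to each other. In FPKM, where the cisplatin and YSJZD ranges overlap, it averaged 7.90 ± 1.05, 9.13 ± 0.66 and 2.11 ± 0.76 in YSJZD, cisplatin and control libraries (SD, n = 3 each). As a share of the gene's counts it made up 0.892% ± 0.0873, 1.41% ± 0.0657 and 0.309% ± 0.131 in YSJZD, cisplatin and control libraries. These splits are estimates of the counting program and were given no test. Whether reads came from spliced RNA of the longer form was not tested.

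**Figure D3:**
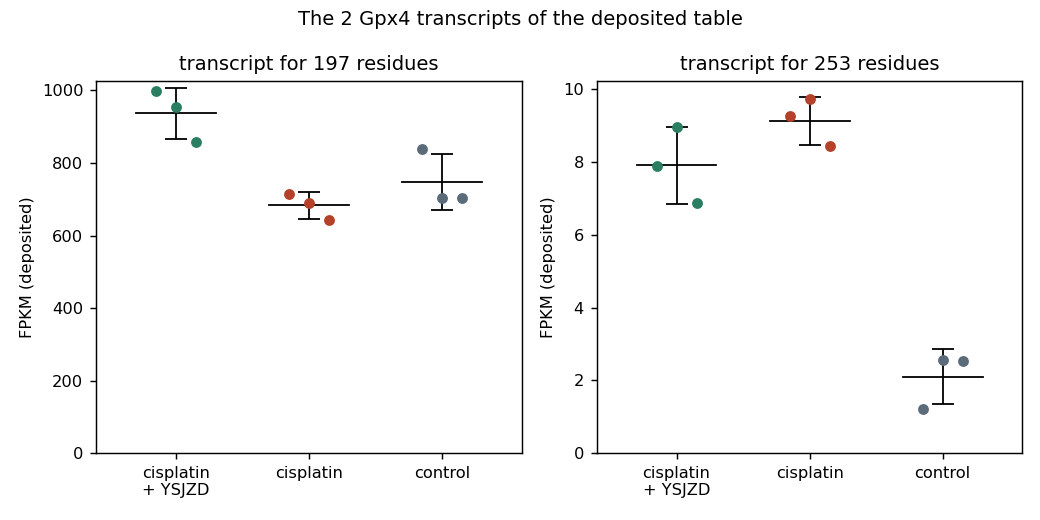
Deposited FPKM of the 2 Gpx4 transcripts by library, each panel on its own scale from 0. Lines and bars are group means and SDs (n = 3). The transcript for 197 residues has its lowest mean in cisplatin libraries, which overlap the controls on this scale, and the one for 253 residues, at 1.23 to 2.55 FPKM in controls, is at 6.86 to 9.72 FPKM in the other 2 groups.

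AIFM2, also called FSP1, keeps coenzyme Q reduced in membranes as a radical trap that works beside GPX4. Aifm2 (Entrez gene 71361, chr10:61715263-61739260) was modestly higher in cisplatin libraries. It had 25.9, 23.9 and 25.6 CPM in YSJZD libraries, 32.3, 34.3 and 31.7 CPM in cisplatin libraries and 23.7, 23.5 and 21.7 CPM in control libraries. The cisplatin libraries lie above all others, and YSJZD libraries lie just above the controls without overlap. The log2 fold change was -0.38 ± 0.12 in YSJZD over cisplatin (edgeR adjusted p = 0.0272). That call was lost without cisplatin replicate 1 (adjusted p = 0.0522), cisplatin replicate 2 (0.0852), YSJZD replicate 2 (0.0937) or YSJZD replicate 3 (0.0761), and in a fit of the 6 libraries of this comparison (0.0597). It was 0.51 ± 0.12 in cisplatin over control (adjusted p = 0.0039) and 0.13 ± 0.12 in YSJZD over control (adjusted p = 0.485). Without cisplatin replicate 3 the first and second of these were -0.41 (adjusted p = 0.0348) and 0.53 (adjusted p = 0.00671).

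Genes that make and recycle glutathione, the substrate of GPX4, were mostly lower in cisplatin libraries. Of 8 tested, 5 were higher and none lower in YSJZD over cisplatin, against 17.4% and 18.0% of all genes. In YSJZD over control 1 was higher and 3 lower, against 9.93% and 9.37%. In cisplatin over control 1 was higher and 5 lower, against 28.6% and 26.0%, and the medians in this order were 0.74, -0.21 and -1.11. Cbs and Cth, which turn methionine sulfur into cysteine, had log2 fold changes of 2.04 ± 0.20 and 1.98 ± 0.21 in YSJZD over cisplatin and of -3.14 ± 0.20 and -2.36 ± 0.21 in cisplatin over control. Ggt1, which breaks down extracellular glutathione at the brush border, averaged 936 CPM in YSJZD, 258 CPM in cisplatin and 1897 CPM in control libraries. Gss, glutathione synthetase, averaged 292, 156 and 472 CPM in YSJZD, cisplatin and control libraries and passed in all 3 comparisons. Gclc, the catalytic subunit of the rate-limiting ligase, averaged 388, 340 and 301 CPM in YSJZD, cisplatin and control libraries and passed in none. The modifier subunit Gclm passed in YSJZD over cisplatin (0.55 ± 0.18, edgeR adjusted p = 0.0389) but not in cisplatin over control (-0.46 ± 0.18, adjusted p = 0.0568). Chac1, which degrades glutathione inside cells, went the other way, with 2.57, 5.84 and 1.3 CPM in YSJZD, 14.4, 6.17 and 5.65 CPM in cisplatin and 1.02, 0.656 and 0.795 CPM in control libraries. It rose by 3.40 ± 0.60 in cisplatin over control (adjusted p = 0.000883), while its -1.44 ± 0.53 in YSJZD over cisplatin missed the threshold (adjusted p = 0.0576). Proximal tubule marker levels moved with Cbs, Cth, Ggt1 and Gss in both comparisons, and their part was not tested.

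Genes listed for selenoprotein synthesis, most of which serve to insert the selenocysteine shown above, moved by smaller amounts. The list also holds Txnrd1, which does not serve that step and is the 1 gene counted as higher in each comparison with control. Of 7 tested, 2 were higher and none lower in YSJZD over cisplatin, against 17.4% and 18.0% of all genes. In YSJZD over control 1 was higher and 1 lower, against 9.93% and 9.37%. In cisplatin over control 1 was higher and 5 lower, against 28.6% and 26.0%, and the medians in this order were 0.44, -0.07 and -0.62. Sephs2, which makes the selenium donor, averaged 391 CPM in YSJZD, 238 CPM in cisplatin and 385 CPM in control libraries. Its log2 fold change was 0.72 ± 0.16 in YSJZD over cisplatin (edgeR adjusted p = 0.0066) and -0.69 ± 0.16 in cisplatin over control (adjusted p = 0.00389). Eefsec, the elongation factor for selenocysteine, was 0.64 ± 0.21 higher in YSJZD over cisplatin and fell by 0.81 ± 0.21 in cisplatin against control. Sepsecs, which makes selenocysteine on its tRNA, fell by 0.77 ± 0.23 in YSJZD against control and fell by 1.32 ± 0.24 in cisplatin against control. Txnrd1, the thioredoxin reductase of the cytosol and itself a selenoprotein, rose by 1.3 ± 0.22 in cisplatin over control and by 0.77 ± 0.22 in YSJZD over control.

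Genes listed for radical trapping outside GPX4 moved in both directions. The list also holds Dhcr7 and the acyltransferase gene Mboat1, so its counts do not all stand for radical traps. Of 13 tested, 7 were higher and 1 lower in YSJZD over cisplatin, against 17.4% and 18.0% of all genes. In YSJZD over control 2 were higher and 3 lower, against 9.93% and 9.37%. In cisplatin over control 3 were higher and 8 lower, against 28.6% and 26.0%, and the medians in this order were 0.50, -0.14 and -0.63. Pdss1 and Pdss2, which build the tail of coenzyme Q, had log2 fold changes of 1.08 ± 0.23 and 0.94 ± 0.17 in YSJZD over cisplatin and of -2.27 ± 0.23 and -1.37 ± 0.17 in cisplatin over control. Coq8a, a kinase-like factor of its assembly, averaged 139, 39.9 and 129 CPM in YSJZD, cisplatin and control libraries and passed in YSJZD over cisplatin and in cisplatin over control but not in YSJZD over control (0.11 ± 0.27, edgeR adjusted p = 0.816). Nqo1, a quinone reductase, averaged 105, 81.2 and 32.1 CPM in YSJZD, cisplatin and control libraries, and rose by 1.70 ± 0.24 in YSJZD over control and by 1.34 ± 0.24 in cisplatin over control. Mboat1, a lysophospholipid acyltransferase, rose by 1.63 ± 0.24 in YSJZD over control and by 2.17 ± 0.24 in cisplatin over control.

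ACSL4 couples arachidonic and adrenic acid to coenzyme A, the step that commits them to membrane phospholipids. Acsl4 (Entrez gene 50790, chrX:142317993-142390802) was higher in every cisplatin library than in any other library, and higher in every YSJZD library than in any control. It had 99.9, 118 and 138 CPM in YSJZD libraries, 199, 269 and 478 CPM in cisplatin libraries and 29.2, 41.8 and 29.4 CPM in control libraries. Its log2 fold change was -1.41 ± 0.30 in YSJZD over cisplatin (edgeR adjusted p = 0.00531), 1.83 ± 0.30 in YSJZD over control (adjusted p = 0.00284) and 3.24 ± 0.32 in cisplatin over control (adjusted p = 2.31e-05). Cisplatin replicate 3, which stands apart among the libraries, holds the highest value. Without it the difference was -0.98 (adjusted p = 0.0079) in YSJZD over cisplatin and 2.80 (adjusted p = 1.5e-05) in cisplatin over control. Summed levels of 12 macrophage and monocyte markers were 731, 436 and 381 CPM in YSJZD, 893, 1546 and 2289 CPM in cisplatin and 158, 113 and 138 CPM in control libraries. One gene, Cd14, makes up most of the mean sum in YSJZD and cisplatin libraries and little of it in control libraries, with means of 405 CPM in YSJZD, 1052 CPM in cisplatin and 12.2 CPM in control libraries. Of the 12 markers, none were higher and 8 lower in YSJZD over cisplatin, against 17.4% and 18.0% of all genes. In YSJZD over control 3 were higher and none lower, against 9.93% and 9.37%. In cisplatin over control 8 were higher and none lower, against 28.6% and 26.0%, and the medians in this order were -1.85, 0.07 and 1.91. Tubular injury marker sums were 17530, 12520 and 14120 CPM in YSJZD replicates 1, 2 and 3. In the same order they were 15400, 23610 and 36770 CPM in cisplatin and 478, 503 and 461 CPM in control libraries. The part of either marker set in the Acsl4 values was not tested.

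Acsl4 gained on its relatives as well. Summed FPKM of the 5 long-chain acyl-CoA synthetase genes was 154 ± 19.7 in YSJZD, 199 ± 10.1 in cisplatin and 77.7 ± 3.20 in control libraries (SD, n = 3 each). Acsl4 made up 15.1%, 14.0% and 20.8% of that sum in YSJZD libraries, 24.0%, 30.3% and 46.9% in cisplatin libraries and 6.62%, 9.70% and 7.77% in control libraries. The 3 groups do not overlap in this share, which does not depend on scaling between libraries. Acsl1, the main form of the cortex, held 54.9% ± 10.1, 38.2% ± 6.12 and 63.4% ± 2.93 in YSJZD, cisplatin and control libraries. Set against Gpx4 in FPKM, Acsl4 stood at a ratio of 0.0211 to 0.0349 in YSJZD, 0.0624 to 0.150 in cisplatin and 0.00612 to 0.0111 in control libraries. Its transcripts for 670 residues took most of the counts, and the form for 711 residues, known from brain, held 4.39% ± 1.59, 4.68% ± 1.14 and 3.68% ± 0.65 of them in YSJZD, cisplatin and control libraries, with overlapping ranges.

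**Figure D4:**
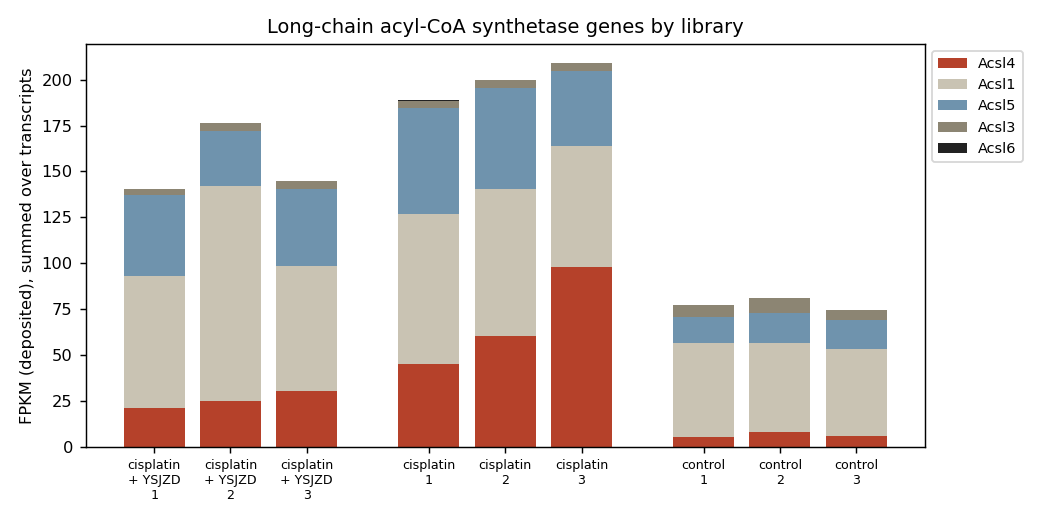
Deposited FPKM of the 5 long-chain acyl-CoA synthetase genes, stacked for each of the 9 libraries. The Acsl4 part at the foot of each bar is 21.2 to 30.2 FPKM in YSJZD, 45.2 to 98.0 FPKM in cisplatin and 5.13 to 7.85 FPKM in control libraries.

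LPCAT3 then places polyunsaturated acyl chains on lysophospholipids. Lpcat3 (Entrez gene 14792, chr6:124663094-124704716) did not pass in any comparison. It had 211, 177 and 156 CPM in YSJZD libraries, 187, 168 and 258 CPM in cisplatin libraries and 198, 167 and 151 CPM in control libraries. The groups overlap, and the highest value is again in cisplatin replicate 3. Log2 fold changes were -0.17 ± 0.19 in YSJZD over cisplatin (edgeR adjusted p = 0.510), 0.07 ± 0.19 in YSJZD over control (adjusted p = 0.830) and 0.25 ± 0.19 in cisplatin over control (adjusted p = 0.297). Scaled by library totals alone the last of these was 0.47 (adjusted p = 0.028). Without cisplatin replicate 3 the first was 0.03 (adjusted p = 0.922). Lpcat3 made up 90.0% ± 1.38, 85.8% ± 3.56 and 92.1% ± 1.61 of the summed FPKM of the 4 Lpcat genes in YSJZD, cisplatin and control libraries.

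There were 16 other tested genes of fatty acid activation and phospholipid remodelling. In YSJZD over cisplatin 4 were higher and 2 lower, against 17.4% and 18.0% of all genes. In YSJZD over control 2 were higher and 9 lower, against 9.93% and 9.37%. In cisplatin over control 3 were higher and 10 lower, against 28.6% and 26.0%, and the medians in this order were 0.26, -0.59 and -0.86. Acsl5 moved with Acsl4 under cisplatin, by 1.51 ± 0.16 (edgeR adjusted p = 3.67e-05), but its -0.36 ± 0.16 in YSJZD over cisplatin missed the threshold (adjusted p = 0.0947). Fads2, the desaturase that starts the making of long polyunsaturated fatty acids, averaged 63.4 CPM in YSJZD, 33.7 CPM in cisplatin and 125 CPM in control libraries and passed in all 3 comparisons. Far1, which makes the fatty alcohols of ether lipids, was 1.11 ± 0.23 higher in YSJZD over cisplatin and fell by 2.23 ± 0.24 in cisplatin against control, and Agps, which forms the ether bond, fell by 1.90 ± 0.14 in YSJZD against control and fell by 2.17 ± 0.14 in cisplatin against control. Lpcat1 fell by 1.11 ± 0.24 in YSJZD against cisplatin.

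Lipoxygenases oxygenate free or membrane fatty acids, and ALOX5 also makes leukotrienes in leukocytes with its partner protein ALOX5AP. Alox5 (Entrez gene 11689, chr6:116410071-116461178) was near the limit of counting in control kidneys and showed the largest fold change among the members in both comparisons with control. It had 3.09, 1.05 and 4.86 CPM in YSJZD libraries, 17.9, 14.8 and 10.1 CPM in cisplatin libraries and 0.291, 0.219 and 0.265 CPM in control libraries. Summed over libraries these are 151 counts in YSJZD, 751 in cisplatin and 11 in control. No groups overlap. The log2 fold change was -2.24 ± 0.45 in YSJZD over cisplatin (edgeR adjusted p = 0.00409), 3.51 ± 0.60 in YSJZD over control (adjusted p = 0.00323) and 5.74 ± 0.59 in cisplatin over control (adjusted p = 2.93e-05). Without cisplatin replicate 3 the values were -2.44 (adjusted p = 0.00372) in YSJZD over cisplatin and 5.94 (adjusted p = 4.57e-05) in cisplatin over control.

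Neutrophil markers, like Alox5, were highest in cisplatin libraries. Summed levels of 11 neutrophil markers were 10.5, 8.73 and 4.45 CPM in YSJZD, 35.1, 118 and 85.8 CPM in cisplatin and 2.11, 1.97 and 1.72 CPM in control libraries, with Mpo and Elane at 0 counts in cisplatin libraries. Of the 8 that were tested, 8 were lower in YSJZD over cisplatin, against 18.0% of all genes. In YSJZD over control 5 were higher, against 9.93%, and in cisplatin over control 8 were higher, against 28.6%. Mmp8, Mmp9 and Trem1 averaged 0.371, 0.46 and 0.554 CPM in YSJZD libraries and 0.024, 0.47 and 0 CPM in control libraries. These means lie under the filter limit of 0.625 CPM, so the cisplatin libraries, in which these genes are high, helped to admit them. Cxcr2 and Retnlg averaged 0.629 ± 0.261 and 0.655 ± 0.362 CPM in YSJZD libraries, about that limit, and 0.117 and 0.046 CPM in control libraries. The cisplatin libraries helped to admit these as well. The counts of 8 lower and 8 higher are therefore in part set by the filter. The macrophage marker values are given with Acsl4. Summed levels of 10 mast cell and eosinophil markers were 24.1, 22.8 and 30.7 CPM in YSJZD libraries. They were 26.5, 33.6 and 134 CPM in cisplatin and 17.9, 19.7 and 18.5 CPM in control libraries. The defining genes Cpa3, Prg2 and Epx had 0 counts in cisplatin libraries. Kit alone makes up most of the mean sum, with 18.9 CPM in YSJZD, 60.5 CPM in cisplatin and 13.2 CPM in control libraries. T and B cell marker sums were at most 2.69 CPM in any library. The part of infiltrating cells in the Alox5 values was not tested.

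Alox12 (Entrez gene 11684, chr11:70241457-70255380), the platelet-type 12-lipoxygenase, did not pass in any comparison. It had 3.97, 3.54 and 3.14 CPM in YSJZD libraries, 2.33, 2.63 and 3.23 CPM in cisplatin libraries and 3.86, 3.72 and 3.84 CPM in control libraries. Cisplatin libraries lie below the controls without overlap, and YSJZD libraries overlap both. Log2 fold changes were 0.38 ± 0.26 in YSJZD over cisplatin (edgeR adjusted p = 0.272), -0.10 ± 0.25 in YSJZD over control (adjusted p = 0.831) and -0.48 ± 0.26 in cisplatin over control (adjusted p = 0.137). Summed platelet marker levels were 5.78 to 8.31 CPM in YSJZD, 7.39 to 26.5 CPM in cisplatin and 6.48 to 9.02 CPM in control libraries. Of the 3 markers tested, Itga2b fell by 1.28 ± 0.26 in cisplatin against control (edgeR adjusted p = 0.002), while Pf4 and Ppbp rose by 3.62 ± 0.69 and 3.08 ± 0.72 in that comparison. Ppbp averaged 0.509 CPM in YSJZD and 0.565 CPM in control libraries, under the filter limit of 0.625 CPM. The cisplatin libraries, at a mean of 4.83 CPM, helped to admit it. The part of the platelet markers in the Alox12 values was not tested. Alox15 (Entrez gene 11687, chr11:70344147-70390538), whose product oxygenates membrane phospholipids directly, had 9, 4 and 10 counts in YSJZD libraries, 10, 6 and 9 in cisplatin libraries and 2, 7 and 9 in control libraries. The 3 groups overlap. In a fit without the low-count filter the log2 fold change was -0.05 ± 0.60 in YSJZD over cisplatin (edgeR adjusted p = 0.984), 0.14 ± 0.62 in YSJZD over control (adjusted p = 0.949) and 0.19 ± 0.61 in cisplatin over control (adjusted p = 0.836), so no difference was detectable at this depth.

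Other enzymes of the lipoxygenase and prostanoid routes rose more often than they fell under cisplatin. Of 8 tested, none were higher and 3 lower in YSJZD over cisplatin, against 17.4% and 18.0% of all genes. In YSJZD over control 2 were higher and none lower, against 9.93% and 9.37%. In cisplatin over control 5 were higher and none lower, against 28.6% and 26.0%, and the medians in this order were -0.44, 0.92 and 1.28. Aloxe3 is among the 3 and the 5, and it passed the filter only through its cisplatin libraries, so the group in which it is high admitted it. Alox5ap had 3.79, 2.43 and 4.15 CPM in YSJZD libraries, 22.0, 61.1 and 14.3 CPM in cisplatin libraries and 2.11, 1.68 and 1.99 CPM in control libraries. It followed Alox5 with a log2 fold change of -3.23 ± 0.49 in YSJZD over cisplatin (edgeR adjusted p = 0.00106) and 4.07 ± 0.53 in cisplatin over control (adjusted p = 0.000126), and its 0.85 ± 0.52 in YSJZD over control missed the threshold (adjusted p = 0.299). Ptgs2, the inducible prostaglandin synthase often read as a ferroptosis marker, had 2.45, 2.49 and 2.08 CPM in YSJZD libraries, 6.40, 4.97 and 0.745 CPM in cisplatin libraries and 0.364, 0.146 and 0.199 CPM in control libraries. Both treated groups lie above the controls, and cisplatin replicate 3 lies below every YSJZD library. The Ptgs2 difference was -0.79 ± 0.60 in YSJZD over cisplatin (adjusted p = 0.332), 3.27 ± 0.77 in YSJZD over control (adjusted p = 0.0147) and 4.06 ± 0.76 in cisplatin over control (adjusted p = 0.00123). Ptgs1, the constitutive form, fell by 0.76 ± 0.22 in YSJZD against cisplatin, and Ltc4s, which makes leukotriene C, was 1.68 ± 0.40 higher in YSJZD than in control. Aloxe3, a lipoxygenase of skin, had 7 counts over the YSJZD libraries, 84 over the cisplatin libraries and 1 over the controls, and the cisplatin to control ratio of 68.7 has a 95% counting interval of 12.0 to 2744.

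Genes listed for the supply of electrons and iron to peroxidation moved both ways. The list also holds the ferritin genes Fth1 and Ftl1, which store iron, and the iron exporter gene Slc40a1. Its counts therefore do not all stand for supply. Fth1 is among the 3 higher in cisplatin over control, at 1.07 ± 0.27 (edgeR adjusted p = 0.00648). Of 10 tested, 2 were higher and none lower in YSJZD over cisplatin, against 17.4% and 18.0% of all genes. In YSJZD over control 2 were higher and 2 lower, against 9.93% and 9.37%. In cisplatin over control 3 were higher and 3 lower, near the 28.6% and 26.0% of all genes. The medians in this order were 0.13, 0.17 and -0.16. Hmox1, which frees iron from haem, had 254, 210 and 123 CPM in YSJZD, 328, 164 and 208 CPM in cisplatin and 69.3, 59.4 and 68.3 CPM in control libraries. It was 1.57 ± 0.30 higher in YSJZD over control and 1.83 ± 0.30 higher in cisplatin over control, and its -0.25 ± 0.29 in YSJZD over cisplatin missed the threshold (edgeR adjusted p = 0.524). Tfrc, the transferrin receptor, fell in both injured groups, averaging 36.8 CPM in YSJZD, 31.3 CPM in cisplatin and 147 CPM in control libraries. Ncoa4, the receptor for ferritin breakdown, and Nox4, a renal NADPH oxidase, were 0.76 ± 0.22 and 1.42 ± 0.38 higher in YSJZD over cisplatin, and Nox4 fell by 1.87 ± 0.39 in cisplatin against control. Sat1, a polyamine-degrading enzyme, was 0.84 ± 0.23 higher in YSJZD over control.

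Regulators of ferroptosis were mostly higher in cisplatin libraries. Of 11 tested, 2 were higher and 4 lower in YSJZD over cisplatin, against 17.4% and 18.0% of all genes. In YSJZD over control 4 were higher and 1 lower, against 9.93% and 9.37%. In cisplatin over control 7 were higher and 2 lower, against 28.6% and 26.0%, and the medians in this order were -0.29, 0.01 and 0.46. Atf4, the stress factor known to bind amino acid response elements, had 125, 144 and 104 CPM in YSJZD, 188, 149 and 118 CPM in cisplatin and 152, 114 and 101 CPM in control libraries, and passed in no comparison (cisplatin over control 0.31 ± 0.21, edgeR adjusted p = 0.237). Atf3, a repressor in the same response, averaged 17.6, 52.5 and 1.43 CPM in YSJZD, cisplatin and control libraries and passed in all 3 comparisons. Nfe2l2, which encodes the antioxidant factor NRF2, rose by 0.97 ± 0.15 in YSJZD over control and by 0.88 ± 0.15 in cisplatin over control, and its 0.09 ± 0.15 in YSJZD over cisplatin missed the threshold (adjusted p = 0.660). Hspb1, a small heat shock protein, averaged 47.4, 484 and 10.4 CPM in YSJZD, cisplatin and control libraries, and fell by 3.35 ± 0.49 in YSJZD against cisplatin and was 5.53 ± 0.55 higher in cisplatin than in control. Trp53, the p53 gene, was 0.86 ± 0.17 higher in YSJZD over control and 1.08 ± 0.17 higher in cisplatin over control. Cisd1, an iron-sulfur protein of mitochondria, was 0.67 ± 0.14 higher in YSJZD over cisplatin and fell by 1.13 ± 0.14 in cisplatin against control.

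**Figure D5:**
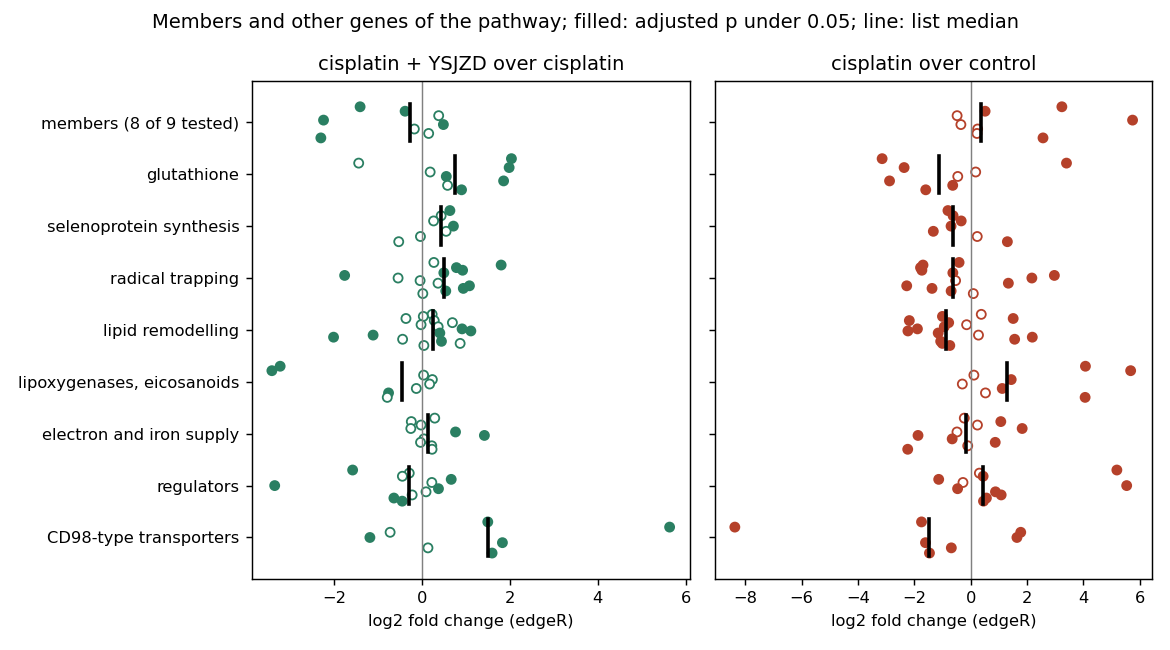
Log2 fold changes of the tested members and of the other genes of 8 lists in YSJZD over cisplatin and in cisplatin over control. Each point is a gene, filled where the adjusted p is under 0.05, and the upright line is the list median. The glutathione median is 0.74 in the first panel and -1.11 in the second, and the transporter far from the rest is Slc7a13.

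The members differed in which genes resembled them most over the 9 libraries. Likeness was measured as the root mean square difference of log2 CPM, centred on each gene's mean, and the genes share library, depth and scaling. Slc7a11 was closest to Gm1673 (0.26) and Mdfi (0.29), with its own spread at 1.16. Acsl4 was closest to Tnfaip3 (0.30), an inhibitor of NF-kappaB signalling, and Eno2 (0.30), an enolase, with a spread of 1.34. Alox5 was closest to Anxa3 (0.34), an annexin, and Ccl7 (0.38), a monocyte chemokine, with a spread of 2.19. The members with smaller spreads of 0.22 to 0.24 had closer neighbours. Gpx4 was closest to Coq10a (0.06) and Ddx59 (0.07), Aifm2 to Tpd52 (0.06) and Aopep (0.06), Slc3a2 to Dph7 (0.09) and Atp6v0b (0.11), Lpcat3 to Ehd1 (0.06) and Rundc3a (0.07), and Alox12 to Rab34 (0.07) and Ccni (0.07).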

How the data were processed

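RNA from 9 mouse kidney cortex samples was sequenced on a DNBSEQ instrument, per the labels. The authors deposited 58075 transcripts with expected counts from RSEM 1.3.1, per the submitters' processing notes, which also name DESeq2 1.4.5 and GRCh38, a human build. The sources used here name no aligner and no mouse build. The values of the other deposited columns fit FPKM, as they imply transcript lengths of 1.011 to 1.016 times the annotated length minus 200 bases. The authors' group averages were not used. Symbols came from RefSeq GRCm38.p6.

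Expected counts were summed per Entrez gene and rounded. All 9 libraries were fitted in edgeR 4.0.16 (R 4.3.3) with filterByExpr by group, TMM and group as the only term, and quasi-likelihood p-values were Benjamini-Hochberg adjusted over 13954 tested genes and called under 0.05. The filter removed 4009 genes. Log2 fold changes carry the standard error and CPM the SD. The procedure was tested on simulated data. DESeq2 1.42.0, other scalings and filters, a 6-library fit, a replicate block and leaving out each library were alternatives. Counting intervals cover counting error only.

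Members and lists were chosen with earlier results of these data known. Named genes are the members, up to 3 called genes of smallest p per list and comparison, 9 genes always given, and the 2 genes most like each tested member. A few others are named to show what a list or marker set holds.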

Additional observations from a re-analysis of the deposited data

How the results depend on the processing

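Each member's log2 fold change and each count of calls was recomputed under other settings. Acsl4 and Alox5 passed in all 3 comparisons under every setting, Slc7a11 in cisplatin over control and YSJZD over cisplatin, and Aifm2 in cisplatin over control, except that requiring 5 CPM in 3 libraries left Slc7a11 and Alox12 untested. Library totals with no composition factor moved the median of all tested genes to -0.048 in YSJZD over cisplatin, 0.198 in YSJZD over control and 0.272 in cisplatin over control, against -0.006, 0.01 and 0.042. Under it Slc3a2 passed in YSJZD over control (0.567) and cisplatin over control (0.462), Lpcat3 passed in cisplatin over control (0.473), and Alox12 in YSJZD over control turned to 0.087. DESeq2 called Gpx4 in cisplatin over control (-0.358). The 6-library fit lost Aifm2 in YSJZD over cisplatin (-0.374). Leaving out 1 library gave 3 to 5 members called in YSJZD over cisplatin, 2 to 3 in YSJZD over control and 4 in each case in cisplatin over control. Genes called ranged from 3496 to 4871, 1607 to 2242 and 6575 to 7409 in the same comparisons. In YSJZD over cisplatin such fits gave 0.441 to 0.567 for Gpx4, -0.41 to -0.344 for Aifm2 and -0.296 to 0.026 for Lpcat3, the last turning without cisplatin replicate 3. In YSJZD over control they gave -0.067 to 0.591 for Slc7a11, which turned without YSJZD replicate 1, 0.265 to 0.538 for Slc3a2, which passed without YSJZD replicate 3, and -0.046 to 0.189 for Lpcat3, which turned without YSJZD replicate 1 and without control replicate 3 (-0.012). Deviations of same-numbered samples had correlations of -0.195 to 0.092, within the -0.196 to 0.24 of differently numbered samples. The numbers thus gave no sign of pairing, though 3 samples per group are too few to settle whether samples were paired. With the replicate block 4590, 2367 and 7348 genes and 5, 2 and 4 members were called in YSJZD over cisplatin, YSJZD over control and cisplatin over control. The cause of these differences was not tested. Depth limits Alox15 most, which had 23, 25 and 18 counts over the YSJZD, cisplatin and control libraries.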
